A study of Drosophila melanogaster with 28 samples.

Results

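The small RNA silencing genes of *Drosophila* are described here through the mRNAs of 8 members, *pasha*, *drosha*, *Dcr-1*, *Dcr-2*, *loqs*, *AGO1*, *AGO2* and *gw*, chosen by name as the core machinery of the miRNA and siRNA pathways, among 16768 fly genes listed in all 3 deposited tables. All 8 were above 0.5 FPKM (fragments scaled for transcript length and for the mapped reads of the library) in each of the 28 libraries, so all 8 entered each comparison below. RNA was sequenced from total lysates (inputs) and from immunoprecipitates (IPs) of 2 RNA-binding proteins. PABP, which binds poly(A) tails in the cytoplasm, was recovered with a synthetic Fab, and ME31B, a DEAD-box RNA helicase that represses maternal mRNAs, was recovered through an eGFP tag. The mutant condition was 0–1 hr *eGFP-me31B; png50* embryos, with an ME31B IP and an input, together with inputs of *png50* embryos without the tag at 0–1 and 2–3 hr; *png50* is a hypomorphic allele of a subunit of the PNG kinase. ME31B IPs also came from eGFP-ME31B embryos, a protein-trap line in which the endogenous gene carries the tag, aged 0–1, 1–2, 2–3, 3–4 and 4–5 hr, each with its own input. S2 cells, a cultured line derived from embryos, gave an ME31B IP and input after transfection with an eGFP-ME31B plasmid, and a PABP IP and input without transfection. PABP IPs and inputs were also made from *w1118* embryos, the untagged laboratory strain, at the same 5 ages. Each condition is 1 library, so no difference below has a replicate check and no test was possible. Calls of 2-fold are therefore calls on the size of a difference only.

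In the miRNA pathway, the nuclear RNase III Drosha and its RNA-binding partner Pasha release hairpin precursors, Dicer-1 with Loquacious cuts them to miRNAs, and Argonaute1 carries the miRNAs to target mRNAs, where GW182, the product of *gw*, recruits deadenylases and other repressors. In the siRNA pathway, Dicer-2 cuts long double-stranded RNA and Argonaute2 carries the products. In the early embryo both pathways start from maternal mRNAs and proteins, and zygotic miRNAs take part in the clearance of maternal mRNAs after zygotic transcription begins.

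The depth, estimated from the smallest steps between FPKM values, was 10.2 to 16.5 M reads per library. The fly FPKM of the *w1118* inputs summed to 302478 at 0–1 hr and 125101 at 1–2 hr, against 1021830 to 1160520 in the 3 later ones, so FPKM of those 2 libraries are low for most genes and stand apart from the rest. Of 7 hemocyte markers, 4 were above 0.5 FPKM in both S2 inputs, with 108 to 151 FPKM in sum, but embryo inputs reached 12.7 to 201 FPKM with 1 to 4 markers above 0.5 FPKM, so this sum does not separate S2 cells from embryos, while the 5 maternal germ line markers summed to 4.54 to 4.89 FPKM there and to 24.6 to 2226 FPKM in embryo inputs. The mRNA of *png* was at 128 to 159 FPKM in the 3 inputs with *png50*, which does not check a hypomorphic allele. The mRNA of *me31B* was at 1486 FPKM in transfected S2 cells, against 50.7 FPKM in untransfected ones, and the transfected value includes plasmid RNA.

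The members lie on 5 chromosome arms or chromosomes of the dm6 (BDGP6) assembly, and all are protein-coding. The microprocessor genes are *pasha* on 3R at 31617977 to 31622217 (plus strand) and *drosha* on 2R at 7932429 to 7936840 (plus). *Dcr-1* is on 3R at 22734007 to 22741091 (minus), *Dcr-2* on 2R at 17574979 to 17581525 (minus) and *loqs* on 2L at 13382652 to 13385671 (plus). *AGO1* is on 2R at 13943387 to 13958089 (minus), *AGO2* on 3L at 15554113 to 15561042 (plus), and *gw* on chromosome 4 at 649041 to 660608 (minus). *pasha* overlaps a neighbouring gene, *kek6*, on the same strand, so some of its reads may belong to either gene, and *AGO2* and *gw* each overlap an annotated transposon insertion on the same strand. The members shared a feature that the choice by name did not use, in that their transcripts are long. The longest annotated transcripts ran from 2147 nt for *loqs* to 7888 nt for *AGO1*, against a median of 2004 nt over 5720 genes above 0.5 FPKM in all libraries. *Dcr-1*, *Dcr-2*, *gw* and *AGO1* were longer than 93.1% to 97.6% of these genes, *AGO2* and *drosha* longer than 84.1% and 85.3%, *pasha* longer than 68.9%, and *loqs* was near the middle, longer than 54.4%.

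How abundant were these mRNAs in the embryo, and did their levels change with age? The mRNA of *gw* was the most abundant member in all 13 embryo inputs and *loqs* came next in 6 of them. In the 2 strains followed to 4–5 hr both Argonautes started low. Relative to the other mRNAs, *AGO2* gained with age in both. *AGO1* gained in eGFP-ME31B embryos, while in *w1118* embryos its gain rests on 1 low 0–1 hr library and it was down again at 4–5 hr. To compare libraries, levels are given as FPKM divided by the median FPKM over 5741 genes that were above 0.5 FPKM in every library. *gw*, the GW182 effector, was at 2.61, 2.05, 3.54, 5.02 and 4.85 times the median gene in eGFP-ME31B embryos from 0–1 to 4–5 hr and at 1.68, 2.18, 4.12, 3.68 and 2.35 times in *w1118* embryos. Its FPKM ran from 93.6 to 164 in the eGFP-ME31B inputs. *loqs*, whose protein partners both Dicers in different isoforms, was at 1.02, 0.969, 1.36, 1.74 and 1.36 times the median gene in eGFP-ME31B embryos and at 0.745, 0.790, 1.73, 1.45 and 1.40 times in *w1118* embryos, with the higher values from 2–3 hr on in both strains. The remaining members were mostly below the median gene in embryos.

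The 2 Argonautes showed the largest gains in input level with age, measured against the median gene, though that of *AGO1* in *w1118* embryos has the limit given below. *AGO2*, the siRNA Argonaute, was at 18.9, 22.0, 31.0, 45.7 and 49.6 FPKM in eGFP-ME31B embryos from 0–1 to 4–5 hr, which is 0.385, 0.483, 0.775, 1.39 and 1.63 times the median gene. In *w1118* embryos it was at 6.43, 2.93, 34.2, 56.8 and 45.5 FPKM, or 0.423, 0.642, 1.36, 2.02 and 1.91 times the median gene. Relative to the median gene, each age up to 3–4 hr was above the one before it in both strains, and the last 2 ages were close to each other. As a change from 0–1 hr, divided by the change of the median gene and not by the median level, *AGO2* was 3.44-fold higher at 4–5 hr in eGFP-ME31B embryos (log2 1.78, counting interval 1.67 to 1.89) and 4.03-fold higher in *w1118* embryos (log2 2.01, 1.82 to 2.2). Here and below, the counting interval is a 95% exact (Clopper-Pearson) interval from estimated read numbers, and it covers counting error only, not the spread between embryo collections.

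*AGO1*, the miRNA Argonaute, was at 12.8, 10.5, 17.3, 28.0 and 30.5 FPKM in eGFP-ME31B embryos (0.260, 0.230, 0.432, 0.856 and 1.00 times the median gene) and at 1.65, 1.52, 13.8, 17.3 and 7.66 FPKM in *w1118* embryos (0.109, 0.332, 0.548, 0.617 and 0.322 times). Both strains had their lowest level before 2 hr and a higher one at 3–4 hr, but at 4–5 hr *AGO1* was at its highest in eGFP-ME31B embryos and down again in *w1118* embryos, and there the eGFP-ME31B level was 1.77 higher on the log2 scale. Relative to 0–1 hr, the log2 change at 4–5 hr was 1.65 in eGFP-ME31B embryos and 1.40 in *w1118* embryos. The *w1118* value rests on 1 low library, since *AGO1* had about 60.7 estimated reads in the 0–1 hr input. With the 0–1 hr input of eGFP-ME31B embryos as the baseline, an alternative chosen after seeing the data, the *w1118* changes of *AGO1* at 1–2, 2–3, 3–4 and 4–5 hr became 0.27, 0.77, 1.03 and 0.14, against 1.5, 2.00, 2.32 and 1.40 with its own, while those of *AGO2* were 0.65, 1.51, 2.18 and 2.14, against 0.49, 1.35, 2.07 and 2.01.

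*pasha*, the partner of Drosha, was highest in the middle of the time course. It was at 0.302, 0.350, 0.574, 0.929 and 0.713 times the median gene in eGFP-ME31B embryos, with the peak at 3–4 hr, and at 0.422, 0.869, 1.20, 0.857 and 0.560 times in *w1118* embryos, with the peak at 2–3 hr. The log2 change at the peak was 1.29 (1.1 to 1.47) in eGFP-ME31B embryos and 1.18 (0.91 to 1.45) in *w1118* embryos. *drosha*, the nuclease itself, stayed within -0.07 to 0.23 of its 0–1 hr level in eGFP-ME31B embryos and within -0.27 to -0.06 in *w1118* embryos. The 2 microprocessor mRNAs thus differed in the size of their changes. Their levels over the median level of each library were correlated (r = 0.84 over the 10 inputs, by the measure of likeness given at the end). That measure has another zero than the changes, on which *pasha* in *w1118* embryos was at 0.93, 1.18, 0.83 and 0.25 from 1–2 to 4–5 hr. There *drosha* was below 0 at each of these ages, so the likeness of the courses depends on the scale.

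Neither Dicer mRNA was 2-fold higher at any age. *Dcr-1*, the miRNA Dicer, was low at 2–3 and 3–4 hr in both strains, at 0.363, 0.456, 0.315, 0.322 and 0.492 times the median gene in eGFP-ME31B embryos and at 0.665, 0.643, 0.314, 0.427 and 0.551 times in *w1118* embryos. At 2–3 hr it was the only member at least 2-fold below its 0–1 hr level in any comparison of ages, with a log2 change of -1.41 (-1.56 to -1.26) in *w1118* embryos, against a background of 27.2% of genes that were at least 2-fold lower. In eGFP-ME31B embryos the change was -0.46 at 2–3 hr and -0.50 at 3–4 hr, and with the eGFP-ME31B baseline the *w1118* change became -0.51. *Dcr-2*, the siRNA Dicer, stayed between -0.38 and -0.15 in eGFP-ME31B embryos and between -0.02 and 0.38 in *w1118* embryos.

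As a group, the members at least 2-fold higher than at 0–1 hr in eGFP-ME31B embryos were 0 of 8 at 1–2 hr and at 2–3 hr (background 2.14% and 7.28% of genes), 3 at 3–4 hr (*AGO2*, *AGO1* and *pasha*, background 18.4%) and 2 at 4–5 hr (the Argonautes, background 21.2%). In *w1118* embryos they were 1 of 8 at 1–2 hr (*AGO1*, background 5.9%), 3 at 2–3 hr (*AGO1*, *AGO2* and *pasha*, 20.3%), 2 at 3–4 hr (23.9%) and 2 at 4–5 hr (22.7%), both times the Argonautes. No member was 2-fold lower in eGFP-ME31B embryos at any age (background 3.58%, 15.6%, 22.7% and 23.2% from 1–2 to 4–5 hr), and in *w1118* embryos 1 was, *Dcr-1* at 2–3 hr (background 5.97%, 27.2%, 26.3% and 25.1% at the same ages). At 4–5 hr the members' share of gains was close to the background in both strains. The choice of scale matters for these directions. The median gene itself moved by -0.77 in eGFP-ME31B and -1.48 in *w1118* embryos between 0–1 and 2–3 hr when the spiked worm RNA was used for scaling, and by -1.61 and -2.33 between 0–1 and 4–5 hr. On that scale *AGO2* was at 0.17 and -0.32 and *AGO1* at 0.03 and -0.93 at 4–5 hr in the same 2 strains, so the direction in *w1118* embryos turns. At 2–3 hr the *w1118* changes of *AGO2* and *pasha* turned as well, to -0.13 and -0.31, and all changes given here are relative to the other mRNAs. The inputs are whole embryos, so the part of the embryo in which an mRNA changed cannot be told. Where cells had formed, a change in their number and a change per cell cannot be told apart.

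**Figure D1:**
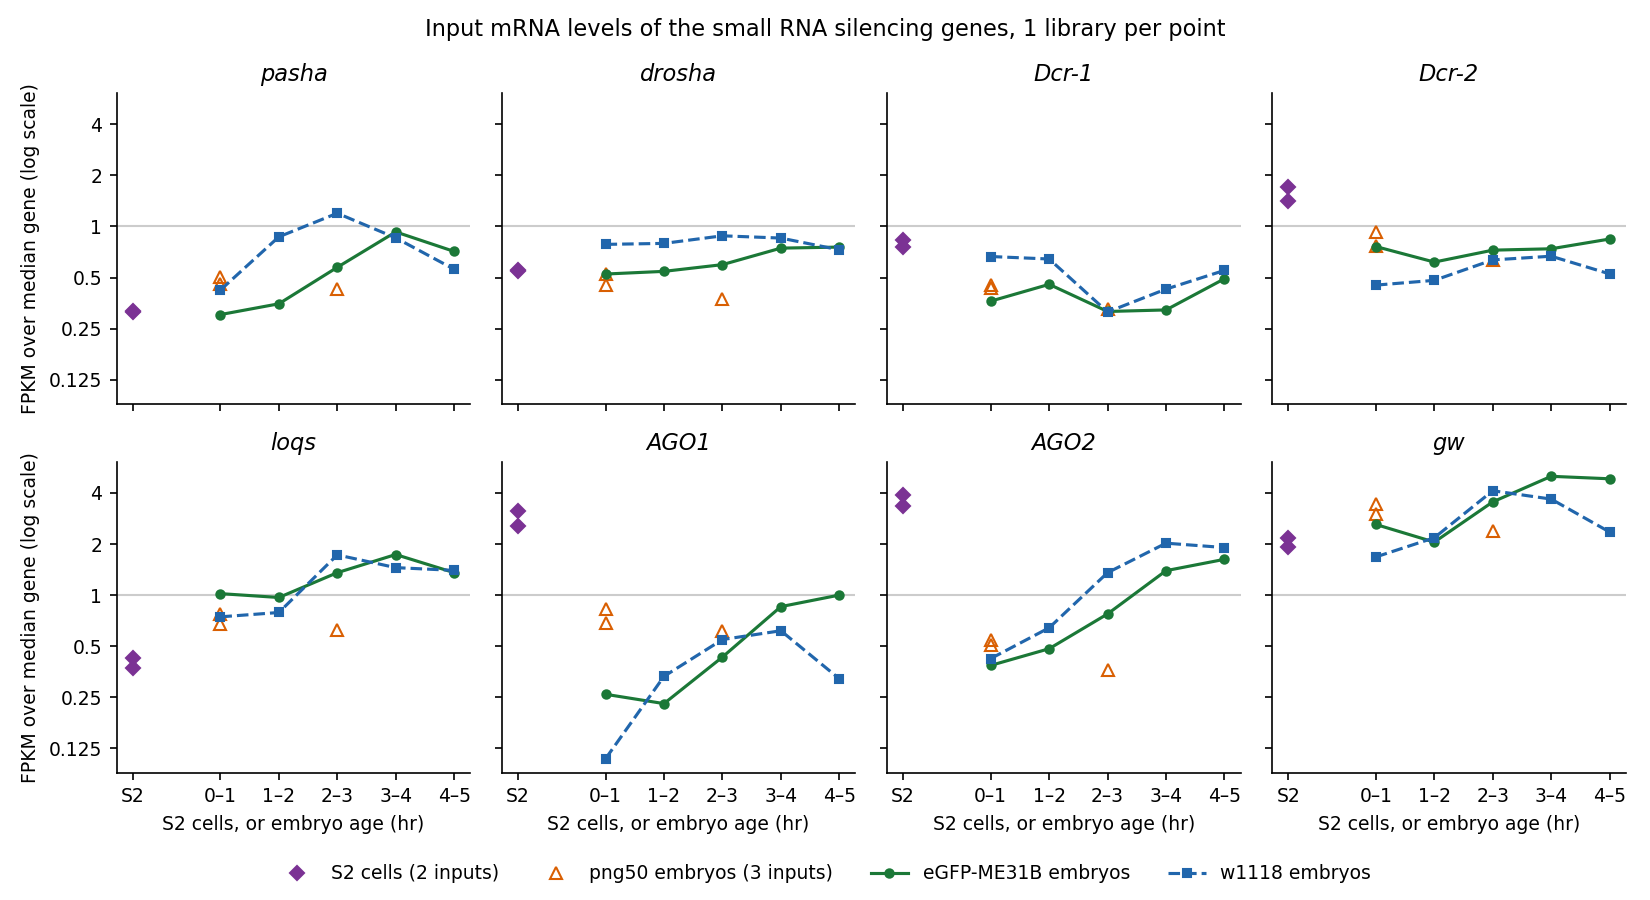
Input levels of the 8 mRNAs, as FPKM over the median FPKM of genes found in all libraries (log scale), in S2 cells, *png50*, eGFP-ME31B and *w1118* embryos, with 1 library per point. *AGO2* climbs from 0–1 to 3–4 hr in both embryo strains relative to the median gene (on the scale of the worm RNA its *w1118* value at 4–5 hr turns to -0.32 against 0–1 hr), *gw* is the highest embryo mRNA, and both Argonautes are highest in S2 cells.

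In *png50* embryos, the age course of the Argonautes and of *pasha* seen in the other strains up to 2–3 hr was not seen. All 8 members were slightly below their 0–1 hr level at 2–3 hr, with log2 changes of -0.60 for *AGO2*, -0.44 for *AGO1*, -0.25 for *pasha* and -0.14 for *loqs*, and none was 2-fold higher or lower (background 1.05% and 1.4%). The median of the members was -0.47. Longer transcripts were lower at 2–3 hr in this pair of libraries over all genes (Spearman's r_s = -0.60 between change and transcript length, 6672 genes), and relative to genes of their own length class the members' median was -0.12. At 2–3 hr 3 of 8 members were at least 2-fold lower with *png50* than in *w1118* embryos, beside 21.4% of genes. They were *AGO2* (log2 -1.59), *pasha* (-1.17) and *loqs* (-1.16). Against eGFP-ME31B embryos none was (8.1% of genes), with *loqs* at -0.93 and *AGO2* at -0.89. *AGO2* then stood at 0.365 times the median gene in *png50* embryos, against 0.775 in eGFP-ME31B and 1.36 in *w1118* embryos. At 0–1 hr its values were 0.545 and 0.507 in the 2 inputs with *png50*, 0.385 in eGFP-ME31B and 0.423 in *w1118* embryos. *AGO1* was higher with *png50* already at 0–1 hr, at 0.829 and 0.689 times the median gene with *png50*, against 0.260 in eGFP-ME31B and 0.109 in *w1118* embryos. The 2 inputs with *png50* at 0–1 hr differed from each other by at most 0.28 on the log2 scale for any member, with an SD of 0.47 over all genes, which is the nearest measure of the spread between collections that these data hold. The zygotic blastoderm markers, a list of 6 genes, summed to 17.8 FPKM in the 2–3 hr *png50* input, against 56.4 to 110.1 FPKM in the 2–3 hr inputs of the other strains. The part of embryo stage in the member differences was not tested.

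Which of these mRNAs did ME31B bind? Binding is log2 of FPKM in the IP over FPKM in the input, with the median over genes subtracted, so that 0 is the binding of the typical mRNA. In eGFP-ME31B embryos 7 of the 8 mRNAs were bound less than the median gene at all 5 ages, *AGO2* the least at each age and *pasha* next in the first 3 hr, and *loqs* was the exception, close to the median gene at 4 of the 5 ages. At 0–1 hr 5 of 8 members were at least 2-fold below the median gene, where 18.9% of 6699 genes were, and the members' median was -1.66, beside a middle 50% of all genes from -0.73 to 0.54. At each later age 7 of 8 were at least 2-fold below, against a background of 24.9% at 1–2 hr, 28% at 2–3 hr, 20.6% at 3–4 hr and 20.1% at 4–5 hr. No member was 2-fold above the median gene at any age, where from 0–1 to 4–5 hr 8.39%, 15.7%, 23.9%, 21% and 21.5% of genes were.

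*AGO2* was among the least bound mRNAs in the embryo. It was at 1.5, 1.28, 2.09, 4.83 and 6.37 FPKM in the ME31B IPs from 0–1 to 4–5 hr, against 18.9, 22.0, 31.0, 45.7 and 49.6 FPKM in their inputs. Each IP value was below each input value, and both were highest at 4–5 hr. Binding was -3.79, -4.16, -4.08, -3.60 and -3.24, and at every age fewer than 1% of genes were bound less, with 0.239% to 0.761% below it. At 0–1 hr this is 13.9-fold less than the median gene (counting interval of the log2 value -4.15 to -3.46). *AGO1* was less extreme at first and lower later. It had 7.44, 2.56, 3.98, 8.79 and 5.71 FPKM in the IPs, against 12.8, 10.5, 17.3, 28.0 and 30.5 FPKM in the inputs, and its binding was -0.92, -2.09, -2.31, -2.03 and -2.70, so that at 4–5 hr only 1.13% of genes were bound less. The *AGO1* values depend on the input, since division by the *w1118* input of the same age gave 0.36 at 0–1 hr and -1.02 at 4–5 hr, while *AGO2* was at -3.91 and -3.43 with the same exchange.

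*pasha* was nearly as weakly bound as *AGO2* in the first 3 hr but not later. It was at 1.98, 1.08, 2.97, 11.8 and 12.2 FPKM in the ME31B IPs, against 14.8, 16.0, 23, 30.4 and 21.7 FPKM in the inputs. The first 3 IP values lay under 3 FPKM and the last 2 near 12, while the inputs changed less. Binding was -3.04, -3.94, -3.14, -1.72 and -1.12, and between 1–2 and 4–5 hr it increased by 2.82 on the log2 scale, the widest span over age of any member. The lowest value rests on about 29.2 estimated reads in the 1–2 hr IP (counting interval -4.53 to -3.39), and at 4–5 hr the interval was -1.33 to -0.91. *drosha* differed from its partner, with binding of -0.90, -1.35, -1.40, -1.89 and -1.78, and was at 15.2, 10.1, 10.3, 8.45 and 8.16 FPKM in the IPs, against 25.7, 24.8, 23.9, 24.4 and 23.1 FPKM in the inputs.

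The Dicers had similar values late in the time course but not at the start. *Dcr-1* binding was -2.47, -1.79, -1.23, -1.31 and -1.73 and *Dcr-2* binding was -1.55, -1.43, -0.99, -1.51 and -1.70. At 0–1 hr *Dcr-1* had 3.55 FPKM in the IP, against 17.8 FPKM in the input, and *Dcr-2* had 14.1 FPKM in the IP, against 37.3 FPKM in the input, and their counting intervals did not overlap (-2.64 to -2.30 for *Dcr-1* and -1.65 to -1.44 for *Dcr-2*). *gw* was at 41.3, 10.7, 18.7, 41.4 and 28.4 FPKM in the IPs, against 128, 93.6, 142, 164 and 148 FPKM in the inputs, and its binding was -1.77, -3.19, -3.11, -2.35 and -2.66. The most abundant member in the inputs was thus among the least bound after the first hour. *loqs* was at 58.8, 34.4, 25.1, 76.9 and 60.1 FPKM in the IPs, against 50.04, 44.1, 54.3, 56.9 and 41.4 FPKM in the inputs, which made it the highest member in all 5 IPs. Its binding was 0.09, -0.42, -1.30, 0.08 and 0.26, with the 1 low value at 2–3 hr.

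**Figure D2:**
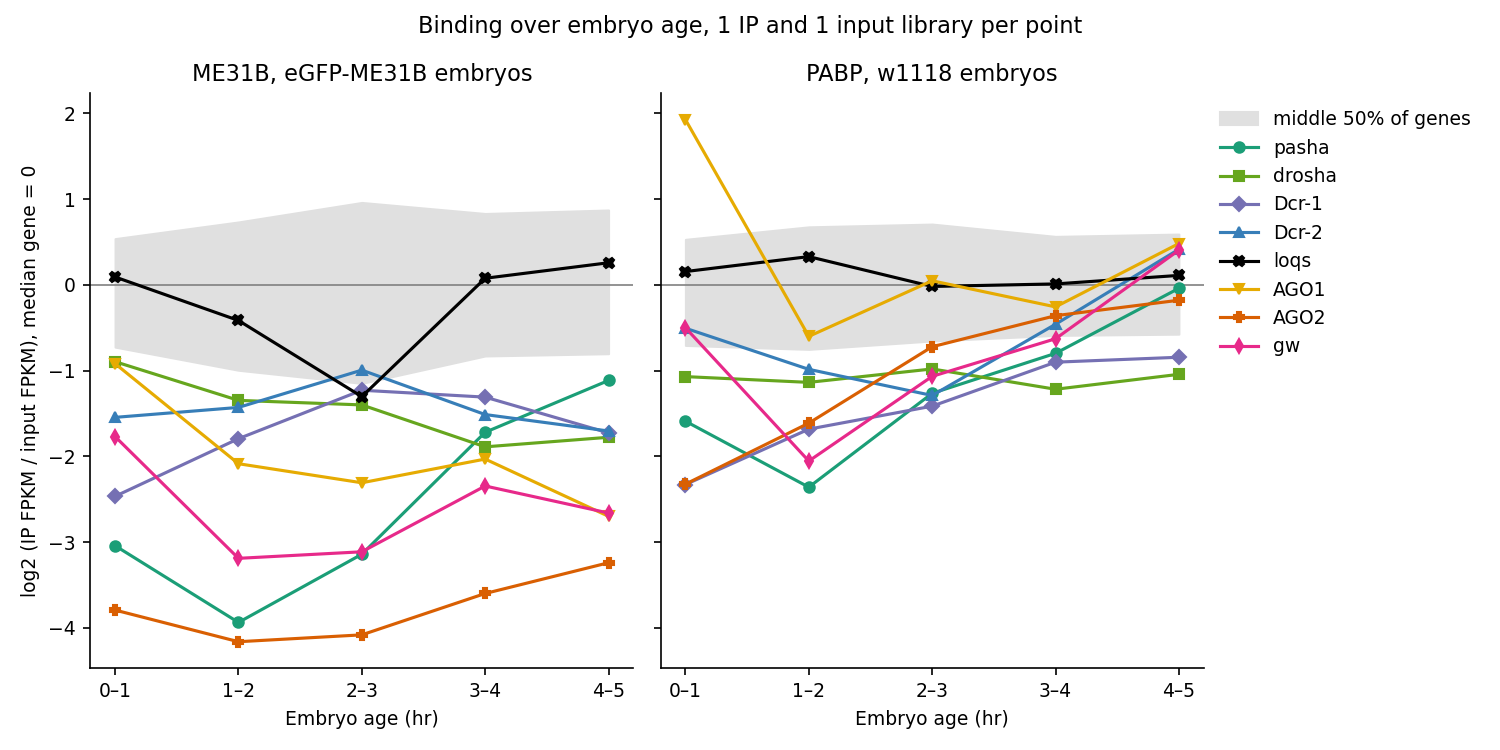
ME31B binding in eGFP-ME31B embryos (left) and PABP binding in *w1118* embryos (right) by age, as log2 of IP over input FPKM with the median gene at 0, 1 IP and 1 input library per point. The grey band holds the middle 50% of genes. *AGO2* stays below -3.2 for ME31B at all ages, *loqs* is the member nearest 0 for ME31B except at 2–3 hr, and for PABP 6 of the 8 members lie between -0.18 and 0.48 at 4–5 hr.

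Long transcripts were bound less by ME31B than short ones over all genes at 0–1 hr (r_s = -0.57 between binding and transcript length across 6675 genes of the same 2 libraries, a description only). The median binding was 0.59 in the shortest class of genes and -1.38 in the longest. When each gene was instead centred on the genes of its own length class (10 classes of equal size), the members separated. *AGO2* and *pasha* kept low values at 0–1 hr, -2.96 and -2.90, with 1.20% and 1.32% of genes lower. *drosha*, *Dcr-2*, *gw* and *loqs* came close to genes of their length at -0.06, -0.17, -0.39 and -0.01, *Dcr-1* remained low at -1.09, and *AGO1* was above its length class at 0.46. The members' median became -0.28, with 3 of 8 at least 2-fold lower. At 2–3 hr, where length and binding were less related (r_s = -0.16), the median was still -1.61 and 6 of 8 were at least 2-fold below genes of their length. This was the largest count of the 5 ages. At 1–2, 3–4 and 4–5 hr the counts were 3, 4 and 5 of 8, where 7 of 8 were that far below the median of all genes. The share of all genes at least 2-fold lower was not computed on this scale at any age. At 2–3 hr it was sizeable, since *drosha*, at -1.06, had 26.6% of genes lower. At that age *gw* was at -2.24, *loqs* at -1.79 and *AGO1* at -1.43 on this scale. *AGO2* was at -2.57 at 4–5 hr, still with 0.734% of genes lower.

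Did ME31B bind the same mRNAs when the PNG kinase was impaired? In 0–1 hr *eGFP-me31B; png50* embryos the 2 least bound mRNAs, *pasha* and *AGO2*, were bound far more than in eGFP-ME31B embryos of the same age, while the other 6 differed little. *pasha* had 23.9 FPKM in the IP and 22.5 FPKM in the input of *eGFP-me31B; png50* embryos, against 1.98 FPKM in the IP and 14.8 FPKM in the input of eGFP-ME31B embryos. Its binding was -0.23 with *png50* (-0.42 to -0.04), against -3.04 without it (-3.48 to -2.63). The IPs were much further apart than the inputs.

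*AGO2* had 10.5 FPKM in the IP and 25.0 FPKM in the input of *eGFP-me31B; png50* embryos, against 1.5 and 18.9 FPKM in the IP and input of eGFP-ME31B embryos, and its binding was -1.58 (-1.75 to -1.40), against -3.79 (-4.15 to -3.46). Centred on the median difference over 6447 genes, binding with *png50* minus binding without it was 2.87 for *pasha* (7.29-fold) and 2.27 for *AGO2* (4.84-fold), larger than for 98.9% and 97.8% of genes. These were 2 of 8 members at least 2-fold higher, beside 10.3% of genes, and no member was 2-fold lower, beside 4.68%. The other differences were 0.58 for *Dcr-2*, 0.20 for *gw*, -0.14 for *loqs*, -0.14 for *drosha*, -0.17 for *Dcr-1* and -0.38 for *AGO1*, which placed them between percentiles 22.4 and 81.4 of all genes. With *png50*, 6 of 8 members were still at least 2-fold below the median gene, where 14.9% of 6651 genes were, and none was 2-fold above, where 5.55% of genes were. But within genes of their length 1 of 8 was 2-fold lower, *Dcr-1* at -1.32 with 5.30% of genes lower, and the members' median was -0.25. On the same scale the differences of *pasha* and *AGO2* were 2.74 and 2.14, and with the second 0–1 hr *png50* input as divisor they were 2.71 and 2.16. The 2 strains were quantified in separate tables, and library and genotype cannot be told apart with 1 library each.

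**Figure D3:**
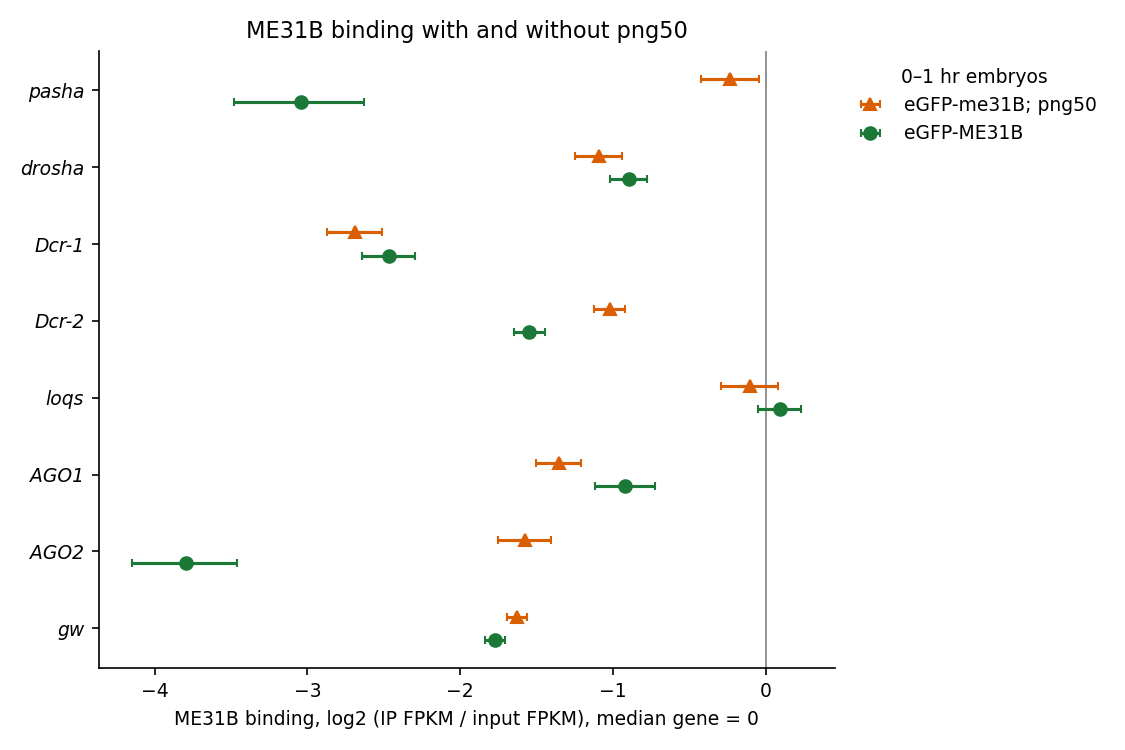
ME31B binding at 0–1 hr in *eGFP-me31B; png50* embryos (triangles, upper of each pair) and eGFP-ME31B embryos (circles, lower), as log2 of IP over input FPKM with the median gene at 0, and bars for 95% counting intervals. *pasha* and *AGO2* are apart by over 2 log2 units, and the other 6 pairs by under 1.

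In S2 cells the order was another one. ME31B bound 7 of the 8 mRNAs more than the median gene in transfected S2 cells, led by *Dcr-1*, *gw* and *pasha*, while in embryos the same mRNAs were below it. *Dcr-1* had 35.4 FPKM in the IP, against 18.2 FPKM in the input, a binding of 1.05 (0.96 to 1.15). The other values were 0.83 for *gw*, 0.76 for *pasha*, 0.67 for *drosha*, 0.41 for *Dcr-2*, 0.27 for *AGO1*, 0.12 for *AGO2* and -0.04 for *loqs*. Only *Dcr-1* was 2-fold above the median gene, beside 8.11% of 7309 genes, and none was 2-fold below, beside 7.8%, with a members' median of 0.54. *AGO2* and *pasha*, at the bottom of the embryo series, were at 86.8 and 10.9 FPKM in the S2 IP, against 85.6 and 6.88 FPKM in the input. In S2 cells long transcripts were bound more by ME31B (r_s = 0.61), the opposite of embryos, and within genes of their length the members' median was -0.08, with *pasha* highest at 0.62 and *AGO1* lowest at -0.65. The part of transcript length in the difference between S2 cells and embryos was not tested.

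PABP bound 7 of the 8 mRNAs less than the median gene in S2 cells, and *loqs* more. *Dcr-2*, *AGO2*, *gw* and *Dcr-1* were at least 2-fold below the median gene in untransfected S2 cells, at -1.48, -1.26, -1.15 and -1.05, beside 9.69% of genes, and none was 2-fold above, beside 15.8%. *AGO1*, *drosha* and *pasha* were at -0.67, -0.59 and -0.22, and *loqs* was the highest member at 0.57 (0.17 to 0.97). *Dcr-2* had 6.74 FPKM in the PABP IP, against 26.0 FPKM in the input, and only 2.46% of genes were bound less. Long transcripts were bound less by PABP (r_s = -0.53), and within genes of their length *Dcr-2* was at -0.69, *AGO2* at -0.74 and the members' median at -0.16, with none 2-fold away from genes of its length.

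**Figure D4:**
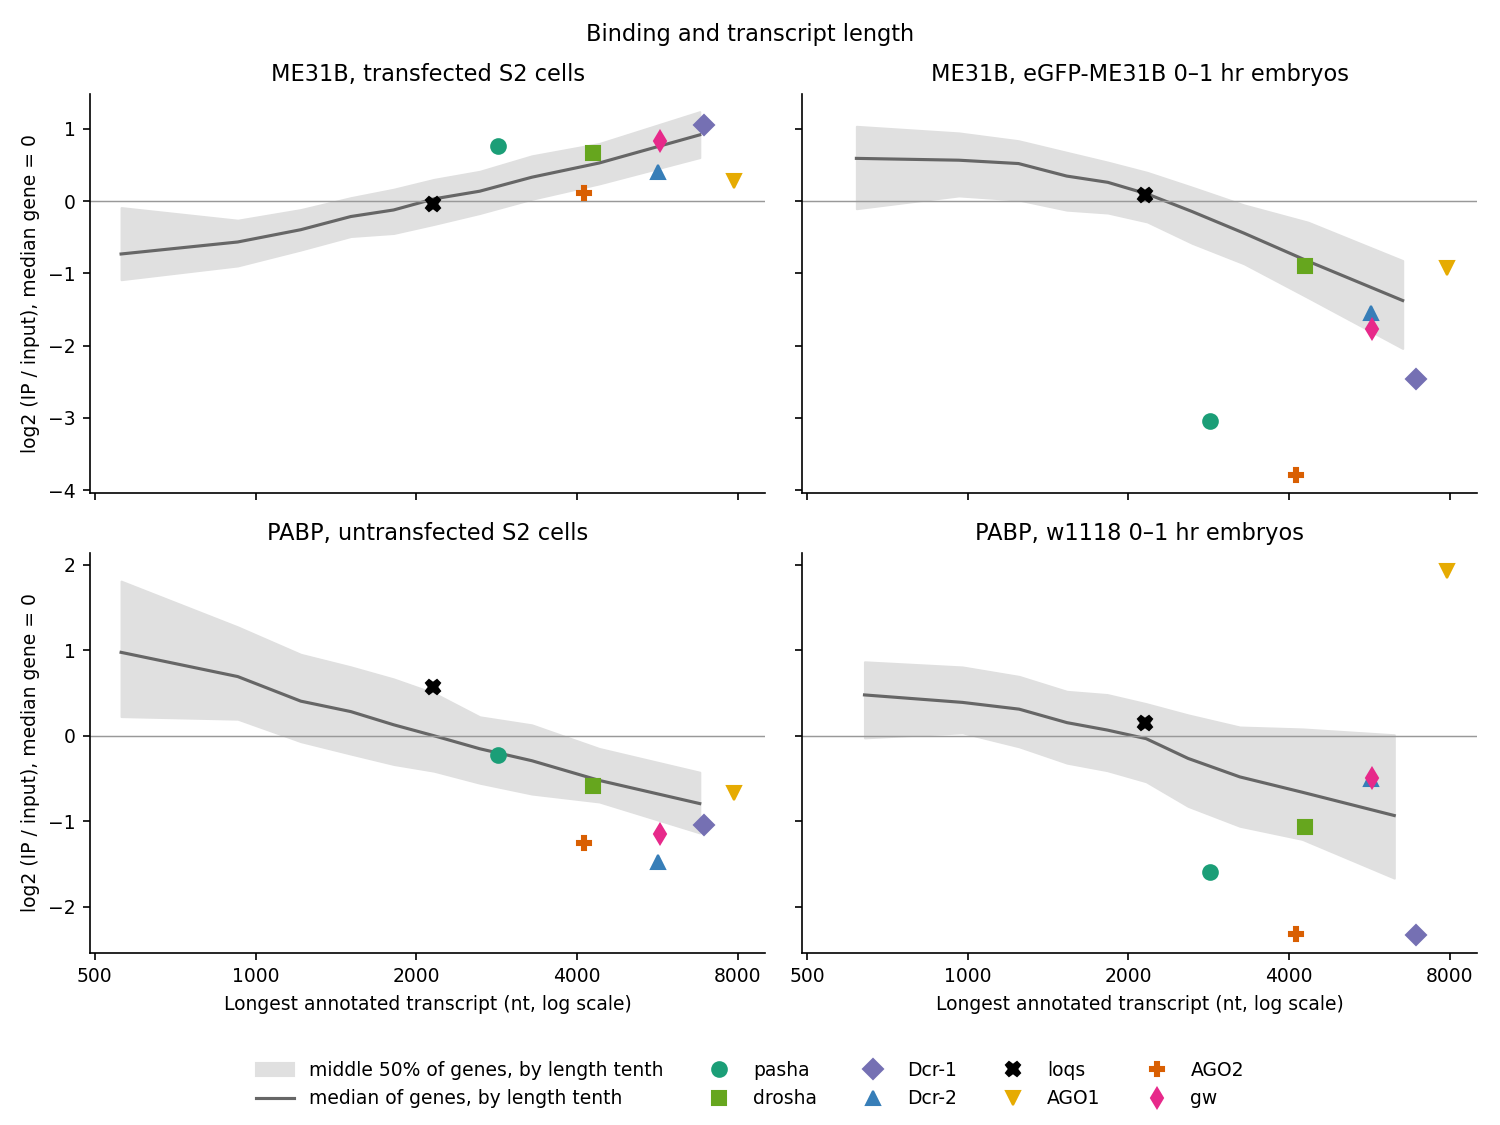
Binding (log2 of IP over input FPKM, median gene at 0) against the longest annotated transcript (nt, log scale) for ME31B (upper row) and PABP (lower row), in S2 cells (left) and 0–1 hr embryos (right). The line and band are the median and middle 50% of genes per length class, drawn at the median length of each, and symbols are the 8 members. *AGO2* and *pasha* are at -3.79 and -3.04 for ME31B in embryos, far below genes of their length (-2.96 and -2.90 relative to them). For ME31B in S2 cells *pasha*, at 0.76, lies above the band and *AGO2*, at 0.12, below it.

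In *w1118* embryos PABP bound 6 of the 8 mRNAs less than the median gene at 0–1 hr, and at 4–5 hr 6 of the 8 were within -0.18 to 0.48 of it, with *drosha* and *Dcr-1* lower. The members' median was -0.79, -1.38, -1.02, -0.54 and 0.03 from 0–1 to 4–5 hr. The members at least 2-fold below were 4 of 8 at 0–1 hr (background 17.8%), 5 at 1–2 hr (18.6%), 4 at 2–3 hr (15.9%), 1 at 3–4 hr (11.7%) and 1 at 4–5 hr (12.1%), the last 2 times *drosha*. Within genes of their length the medians were -0.11, -0.52, -0.61, -0.19 and 0.14. On that scale 3, 1, 1, 0 and 0 of 8 were 2-fold lower, and the share of all genes was not computed. Over all genes, PABP binding fell with length (r_s = -0.39, -0.51, -0.32, -0.30 and -0.12 by age). The part of length in this course was not tested. *AGO2* had 3.24, 6.38, 7.16, 28.5 and 32.5 FPKM in the PABP IPs, against 6.43, 2.93, 34.2, 56.8 and 45.5 FPKM in the inputs, and its binding was -2.32, -1.61, -0.72, -0.36 and -0.18. Its PABP binding thus came close to the median gene by 4–5 hr, at an age when its ME31B binding, measured in the other strain, was -3.24. The timing depends on the input, since with the eGFP-ME31B input of the same age *AGO2* was at 0.05, 0.24 and 0.12 at 2–3, 3–4 and 4–5 hr. *pasha* binding was -1.59, -2.36, -1.27, -0.80 and -0.04, *Dcr-1* binding -2.33, -1.68, -1.41, -0.90 and -0.84, *Dcr-2* binding -0.51, -0.99, -1.29, -0.46 and 0.41 and *gw* binding -0.50, -2.06, -1.07, -0.63 and 0.40. *drosha* stayed flat at -1.07, -1.14, -0.98, -1.22 and -1.04 and *loqs* stayed close to 0 at 0.15, 0.33, -0.02, 0.01 and 0.11.

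*AGO1* was the only member 2-fold above the median gene for PABP, at 0–1 hr, where 10.4% of genes were, and no member was at the later ages, where 14.2%, 17%, 11.7% and 11.7% of genes were. It had 15.9, 6.65, 4.92, 9.34 and 8.65 FPKM in the PABP IPs, against 1.65, 1.52, 13.8, 17.3 and 7.66 FPKM in the inputs, and its binding was 1.93, -0.60, 0.05, -0.26 and 0.48. The value at 0–1 hr, 1.93 (1.55 to 2.33), uses the low *w1118* input and became 0.72 with the eGFP-ME31B input of the same age, and the value at 4–5 hr became -1.09. At 4–5 hr the exchange also turned *gw* to -0.57 and *Dcr-2* to -0.20. For *pasha* the same exchange gave -1.09 at 1–2 hr and -0.24 at 2–3 hr. At 0–1 hr, binding to PABP and ME31B can be set side by side only across strains. *AGO2*, *Dcr-1* and *pasha* were low for both proteins, at -2.32, -2.33 and -1.59 for PABP, and *loqs* was near the median gene for both. Within genes of their length, PABP binding at 0–1 hr was -1.66 for *AGO2*, -1.39 for *Dcr-1*, -1.32 for *pasha* and 2.86 for *AGO1*, and the other 4 lay between -0.41 and 0.43.

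The input levels of the members also differed between S2 cells and embryos. Both Argonautes led in S2 cells, where *gw* came after them, and *loqs* and *pasha* were the lowest. *AGO2* was at 85.6 and 61.8 FPKM in the transfected and untransfected inputs, and *AGO1* at 68.6 and 47.1 FPKM. Relative to the median gene these are 3.90 and 3.34 times for *AGO2* and 3.13 and 2.55 times for *AGO1*. The 2 S2 inputs differed by at most 0.29 on the log2 scale for any member, with an SD of 0.46 over all genes. Against 4–5 hr *w1118* embryos, *AGO1* was higher in untransfected S2 cells by 3.02, *Dcr-2* by 1.45 and *AGO2* by 0.84, and *loqs* was lower at -1.67. Thus 2 of 8 were at least 2-fold higher and 1 was lower, beside 30.5% and 25.5% of genes, so the members' shares did not exceed those of all genes. The *AGO1* value rests on the strain, since *AGO1* was at 2.55 times the median gene in untransfected S2 cells, against 1.00 times in eGFP-ME31B and 0.322 times in *w1118* embryos of 4–5 hr. Against 0–1 hr embryos the differences were 4.48 for *AGO1*, 2.91 for *AGO2*, 1.57 for *Dcr-2* and -0.87 for *loqs*, with 3 of 8 at least 2-fold higher, beside 23.7% of genes, and none lower, beside 19.8%, and these use the low 0–1 hr input. Longer transcripts were higher in S2 cells over all genes (r_s = 0.32 against 4–5 hr embryos), and within genes of their length the differences from 4–5 hr *w1118* embryos were 1.83 for *AGO1*, 0.26 for *Dcr-2*, 0.14 for *AGO2* and -1.70 for *loqs*.

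Other genes of the pathway were read from 3 lists, named here by their highest and lowest genes. Of the list for processing, modification and turnover of small RNAs, 9 of 10 genes were found in the tables. For ME31B at 0–1 hr, 8.39% of all genes were at least 2-fold above the median gene and 18.9% at least 2-fold below. Of the 9 genes of this list, 1 was above and 3 were below, with a list median of 0.05. They ran from *trsn* (1.20), which encodes Translin, to *Hen1* (-2.61), the methyltransferase that protects the 3′ ends of siRNAs. Of the 9 genes for RISC loading and RISC-associated proteins, 1 was 2-fold above and 1 below at 0–1 hr (median -0.07), from *CG16817* (1.15), the p23 cochaperone, to *Rm62* (-2.19), a DEAD-box helicase. Of the 18 genes of the complexes that GW182 recruits, 1 was above and 7 below (median -0.65), from *Not11* (1.47), a CCR4-NOT subunit, to *Edc3* (-2.17), an enhancer of decapping. Binding with *png50* minus binding without it had list medians of 0.42, 0.03 and -0.17, beside 0.03 for the members, with 2, 1 and 2 genes at least 2-fold higher (10.3% of all genes) and 0, 0 and 1 lower (4.68%). These differences ran from *Hen1* (2.66) to *trsn* (-0.38), from *Rm62* (2.2) to *Fmr1* (-0.50) and from *twin* (2.07) to *tral* (-1.55). In the first 2 lists the gene lowest without *png50* had the highest difference, so such a rise was not particular to *pasha* and *AGO2*. In the third list the lowest gene, *Edc3*, did not have the highest difference. The median of the 8 members in eGFP-ME31B embryos, -1.66, was lower than that of each of the 3 lists, whose lengths were not matched to the members. Members and lists were chosen with earlier results of these data known, so this comparison is a description only.

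In S2 cells the same lists had ME31B medians of -0.26, 0.04 and 0.38, with 0 of 9, 0 of 9 and 2 of 18 genes at least 2-fold above (8.11% of all genes) and 1, 0 and 0 below (7.8%). The third list ran from *me31B* itself (1.20, which includes plasmid RNA) to *DCP1* (-0.41), a decapping activator. The first list ran from *Ars2* (0.60), which links the nuclear cap-binding complex to miRNA processing, to *trsn* (-1.08), and the second from *Fmr1* (0.35), an RNA-binding protein found with RISC, to *CG16817* (-0.73). For PABP at 0–1 hr, the first list ran from *trsn* (0.53) to *Ars2* (-1.88), the second from *Fmr1* (1.13) to *Rm62* (-2.12), and the third from *me31B* (2.11) to *twin* (-2.14), which encodes the CCR4 deadenylase, with 0 of 9, 1 of 8 and 4 of 17 genes at least 2-fold above the median gene (10.4% of all genes) and 3, 1 and 4 at least 2-fold below (17.8%). For PABP in S2 cells they ran from *Cbp20* (0.81) to *Hen1* (-1.41), from *Rm62* (0.66) to *vig* (-1.55) and from *Not11* (1.91) to *Patr-1* (-1.59), with 0, 0 and 2 genes at least 2-fold above (15.8% of all genes) and 1 gene in each list at least 2-fold below (9.69%).

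Input levels of the lists at 2–3 hr, relative to 0–1 hr, had medians of 0.27, 0.01 and 0.18 in eGFP-ME31B embryos and 0.96, -0.24 and 0.21 in *w1118* embryos, beside 0.17 and 0.93 for the members. In eGFP-ME31B embryos the lists ran from *r2d2* (1.01), which encodes the loading partner of Dicer-2, to *trsn* (-0.81), from *Tudor-SN* (0.97) to *Hop* (-1.69), an Hsp70 and Hsp90 cochaperone, and from *twin* (0.69) to *Not11* (-2.46), with 1, 0 and 0 genes at least 2-fold higher (7.28% of all genes) and 0, 3 and 1 lower (15.6%). In *w1118* embryos they ran from *Hen1* (1.52) to *trsn* (-0.71), from *Hsc70-4* (0.99) to *Hsp83* (-2.13), the Hsp90 gene, and from *pAbp* (1.36), which encodes PABP, to *Not11* (-2.35), with 4 of 9, 0 of 8 and 2 of 17 genes at least 2-fold higher (20.3% of all genes) and 0, 2 and 1 lower (27.2%). In *png50* embryos the ranges were narrower, from *Hen1* (0.35) to *Cbp80* (-0.32), from *CG16817* (0.28) to *Hsp83* (-0.55) and from *Not10* (0.22) to *Not1* (-1.14), the scaffold of CCR4-NOT, which was the 1 gene of the lists that was 2-fold away. Of all genes, 1.05% were at least 2-fold higher there and 1.4% lower.

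Which mRNAs had the course most like each member over the 10 eGFP-ME31B and *w1118* embryo inputs? Likeness was Pearson's r of log2 levels relative to the median gene, centred within each strain, over 6147 genes. The inputs share ages and, within a strain, a table, so the values are descriptions. *AGO2* was most like *Dcp-1* (r = 0.997), a caspase gene, *loqs* most like *Sry-beta* (0.99), *gw* most like *rb* (0.99) and *AGO1* most like *PAPLA1* (0.99). *drosha* was most like *CG8378* (0.98), *pasha* most like *CG4880* (0.98), *Dcr-1* most like *Asciz* (0.96) and *Dcr-2* most like *Rme-8* (0.93). Among the members themselves, *AGO1* and *gw* had the most alike courses (r = 0.94), and *Dcr-1* was negatively related to the other 7, from -0.73 with *loqs* to -0.20 with *drosha*.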

How the data were processed

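Ribosome-depleted stranded TruSeq libraries of 50 nt reads were made from 28 RNA samples. The study states that 600 ng of *C. elegans* RNA was added to samples, but the worm share of FPKM was uneven. It was 0.0002% to 0.0045% in the transfected S2 and *eGFP-me31B; png50* libraries. In the eGFP-ME31B inputs it was 0.40% to 1.17%, and in the *w1118* inputs 16.5% to 35.7%. The authors trimmed reads with Trimmomatic, aligned them with STAR 2.5.2a to dm6 and ce10 and deposited FPKM values from Cufflinks 2.2.1 in 3 separately quantified tables; their processing notes also name bcl2fastq 2.17, FastQC 0.11.5 and R 3.1.2. FPKM hold no read counts, so depth was estimated from the steps between low values and the annotated lengths of Ensembl release 115 (BDGP 6.54), which matched 99.3% of 16947 fly genes. Intervals and depths resting on it cover counting error only. The study made 2 biological replicates and presents 1, so no count model, test or spread between replicates was available, and no FPKM difference has a p-value.

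Genes above 0.5 FPKM in all libraries of the embryo time course, S2 or *png50* set concerned entered a comparison, without a pseudocount. Binding was log2 IP over input, change was log2 input over the 0–1 hr input, both centred on the median gene, and 2-fold differences were called. Length centring used 10 classes of equal gene number by longest annotated transcript. Scripts (pandas 2.3.3, numpy 2.4.6, scipy 1.17.1 and matplotlib 3.10.9 under Python 3.11.15) were tested on simulated data. All 8 members were named, with the highest and lowest gene of each list and the gene with the highest correlation to each member over 10 inputs. Members and lists were chosen with earlier results of these data known. Alternatives were other filters, a pseudocount of 0.5 FPKM, another input or baseline, and other centring or scaling, including the worm RNA. No sequences are shown.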

Additional observations from a re-analysis of the deposited data

Results flagged for a closer look

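*Dcr-1* was the only member that lay at least 2-fold on opposite sides of the median gene under the same protein. Its ME31B binding was 1.05 in transfected S2 cells, against -2.47, -1.79, -1.23, -1.31 and -1.73 in eGFP-ME31B embryos from 0–1 to 4–5 hr. These are 5 of 136 combinations of a member and a pair of conditions that were read, over 17 pairs, and all 5 share the S2 libraries. The difference was not tested, since each condition is 1 library. Within genes of its length the values were 0.14 in S2 cells, against -1.09, -0.49, -0.35, -0.21 and -0.39 in the embryos.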

How the results depend on the processing

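Of 129 values of the members' medians under alternatives, 100 moved by less than 1.5-fold and 29 moved more. The cause was not tested unless given. Centring on genes of the same length class moved the median ME31B binding to -0.28, -0.76, -1.09 and -1.13 at 0–1, 1–2, 3–4 and 4–5 hr, to -0.25 with *png50* and to -0.078 in S2 cells, the median PABP binding to -0.11 and -0.52 at 0–1 and 1–2 hr and to -0.16 in S2 cells, and the median S2 difference to -0.60 against 0–1 hr and -0.76 against 4–5 hr embryos. Centring on the sum over protein-coding genes moved PABP binding to -2.69, -2.59, -1.94 and -1.06 from 1–2 to 4–5 hr and to -2.62 in S2 cells, and the other strain's input gave -0.35 at 2–3 hr. Scaling by worm RNA moved the median input change to -0.60, -0.36 and -1.20 from 2–3 to 4–5 hr in eGFP-ME31B embryos, to -0.95, -0.56, -0.41 and -2.05 from 1–2 to 4–5 hr in *w1118* embryos and to -1.20 in *png50* embryos. FPKM as deposited gave -1.5, 1.99, 1.88 and 1.1 in *w1118* embryos, where the summed fly FPKM of the first 2 inputs was low. The baseline of the other strain, added after seeing the data, gave 0.39, 0.45, 0.39 and 0.30 there.

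Of the members' own values, 7 called ones turned. Within genes of their length, ME31B binding with *png50* became 0.35 for *Dcr-2* and 0.011 for *AGO1*. The *w1118* change of *AGO1* at 1–2 hr was -0.12 in FPKM as deposited. With worm scaling the *w1118* changes became -0.31 for *pasha* and -0.13 for *AGO2* at 2–3 hr, and -0.93 for *AGO1* and -0.32 for *AGO2* at 4–5 hr. Member values and counts of members called 2-fold were also read together. Of these, a further 284 moved by over 1.5-fold, or to or from a count of 0, with no turn of a called value, and 999 moved less.

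No paired analysis was possible because the labels carry no replicate numbers and each condition is 1 library, and for the same reason no replicate was left out. Differences between libraries of a strain, age or protein therefore cannot be told apart from differences between collections. Depth limits *pasha* and *AGO2* most in the ME31B IPs, where the lowest member value rests on about 29.2 estimated reads.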
